A study of Mus musculus with 89 samples.

Results

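The comparison described here set the lungs of mice given core CuO nanomaterial, the unmodified form, at 10 μg/mouse per administration (CuO 10, 3 samples) against the lungs of control mice given the vehicle, phosphate-buffered saline (PBS), alone (7 samples). These 10 samples were chosen by their labels and belong to a series of 89 samples in 26 groups, in which carboxylated (CuO COOH), aminated (CuO NH3) and PEGylated (CuO PEG) forms of the material and an allergen challenge were also tested. The question of the comparison was what repeated exposure to the pristine material at the middle dose does to gene expression in a lung without allergic inflammation. All mice of both groups, the controls included, were female BALB/c mice aged 6 to 8 weeks that had been sensitised with ovalbumin (OVA) in Alum, so the controls were sensitised mice that had not met the allergen in the airways, and not untreated ones. The exposed and the control mice were challenged with PBS and not with OVA, the material reached the lung by oropharyngeal aspiration on 4 consecutive days, and the tissue was taken 24 hours after the last administration. For every array sample 2 RNA preparations from lavaged lungs were pooled, so cells free in the airways had in part been washed out. The sample descriptions give the dose in μg and the treatment text of the labels in mg, and the former is used here.

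CuO particles taken up by macrophages and epithelial cells dissolve in the acidic lysosome and release copper ions. Free copper is bound by metallothioneins, whose genes are switched on by a metal-sensing transcription factor, while oxidants switch on the Nrf2 programme and misfolded proteins the heat shock programme. Injured alveolar cells and resident macrophages release chemokines that draw neutrophils and monocytes from the blood, and secrete acute phase proteins such as serum amyloid A.

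RNA was hybridised to 2-colour Agilent mouse whole-genome arrays, 2 samples to an array, and values are given here as normalized log2 intensity, on which a difference of 1 is a 2-fold difference in signal. The 10 samples had a median spot intensity of 62.5 to 192.5 scanner units, 1.48 to 4.00 times the local background, and 53.3% to 68.4% of their spots were well above background. No array held both an exposed and a control sample. Replicates 1 to 3 of both groups lay on the same 3 slides with the same dye in each pair, while control replicates 4 to 7 lay on slides 4 to 6. By the scan dates, slide 1 (replicate 1), slides 2 and 3 (replicates 2 and 3) and slides 4 to 6 were each scanned in a different calendar month. Any 2 of the 10 samples correlated with r between 0.980 and 0.996 over all genes. The tissue carried lung markers in all 10 samples, with the surfactant gene Sftpc between 16.87 and 17.82, the club cell gene Scgb1a1 between 16.97 and 17.82 and the alveolar type 1 gene Ager between 14.19 and 14.79. P-values measure only the spread between samples, taken over all 26 groups of the fit.

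Exposure to CuO 10 changed 816 of 22911 genes (3.56% of the genes tested), which are called differentially expressed genes (DEGs) below at an adjusted p under 0.05 and a log2 fold change beyond 0.58 in either direction. Of these, 564 were up-regulated (2.46% of all genes) and 252 were down-regulated (1.1%), and 3229 genes (14.1%) had an unadjusted p under 0.05. The rises were the larger changes. The up-regulated DEGs had a median log2 fold change of 1.13, and 73 of them exceeded 2, whereas the median of the down-regulated DEGs was -0.92 and 4 of them passed -2. All 3 exposed samples lay above all 7 controls for 454 of the 564 up-regulated DEGs (80.5%, against 6.23% of all genes), and below all controls for 190 of the 252 down-regulated DEGs (75.4%, against 6.9% of all genes). Among the 816 DEGs, 811 (99.4%) differed in the direction of the fit in all 3 same-slide pairs, as did 41.2% of all genes. The DEGs were called from these same samples, so these shares follow in large part from the selection and are no separate evidence. The fit, which removes a term for each array, gave log2 fold changes with a median 1.51 times the plain difference of the group means over the DEGs. Sample values are printed beside the fitted ones for the genes described most fully, and for the others only the fitted value is given. The number of DEGs fell to 276 without control replicate 3 (229 up, 47 down), to 480 without exposed replicate 3 and to 483 with array but not dye as a batch term. Of the 816 DEGs, 430 were called the same way in all of 6 fits that differed in the batch terms or the samples used, this one included. Over all 23 fits, the alternatives and this one, 152 of the up-regulated and 13 of the down-regulated DEGs kept their call.

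The largest rises were in genes of the acute phase, the set of plasma and secreted proteins made in response to injury and infection. All 4 measured serum amyloid A genes, which encode chemoattractant apolipoproteins, were up-regulated, with a median log2 fold change of 4.11 against 0.00 over all genes. Saa3 read 15.30, 15.14 and 15.99 in exposed replicates 1 to 3, and the controls ranged from 9.63 to 12.67 (median 11.33). Saa1 read 13.12, 13.14 and 13.56 against 7.05 to 9.38 (median 8.68) in the controls. The lowest exposed sample lay more than 2 log2 units above the highest control for both genes, and the controls varied more among themselves than the exposed samples did. The fitted log2 fold change was 6.15 ± 0.89 (SE, adjusted p = 0.000202) for Saa3, and 5.55 ± 0.69 (SE, adjusted p = 6.03e-05) for Saa1. Saa2, whose sequence is nearly that of Saa1 so that the probes may share signal, had a log2 fold change of 2.67 ± 0.64 (adjusted p = 0.0187). Saa4 was 1.00 ± 0.23 (adjusted p = 0.0117), with no control well above background, which corresponds to a signal at least 1.42-fold higher. Only 2 of the 4 genes were called without control replicate 3.

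Of 22 other acute phase genes, 12 were up-regulated and none was down-regulated, with a median of 1.45. Orm1, an orosomucoid that carries small molecules in plasma, read 10.29, 10.57 and 11.09 in the exposed lungs and 5.75 to 7.63 (median 6.56) in the controls. Its near copy Orm2 read 9.11, 9.66 and 10.23 against 5.87 to 7.46 (median 6.05). Neither gene overlapped between the groups, although control replicate 4 stood well above the other controls for Orm2. The log2 fold changes were 5.63 ± 0.74 for Orm1 and 5.07 ± 0.71 for Orm2. Lcn2, the iron-scavenging lipocalin of epithelium and neutrophils, rose by 4.03 ± 0.56, from a control range of 11.61 to 12.61 (median 12.35) to exposed values of 14.89, 15.22 and 15.28. Complement factor B (Cfb) rose by 2.47, the protease inhibitor Serpina3n by 2.37, the haemoglobin scavenger haptoglobin (Hp) by 1.90 and complement C3 by 1.6. The count for these 22 genes was 6 without exposed replicate 2.

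**Figure D1:**
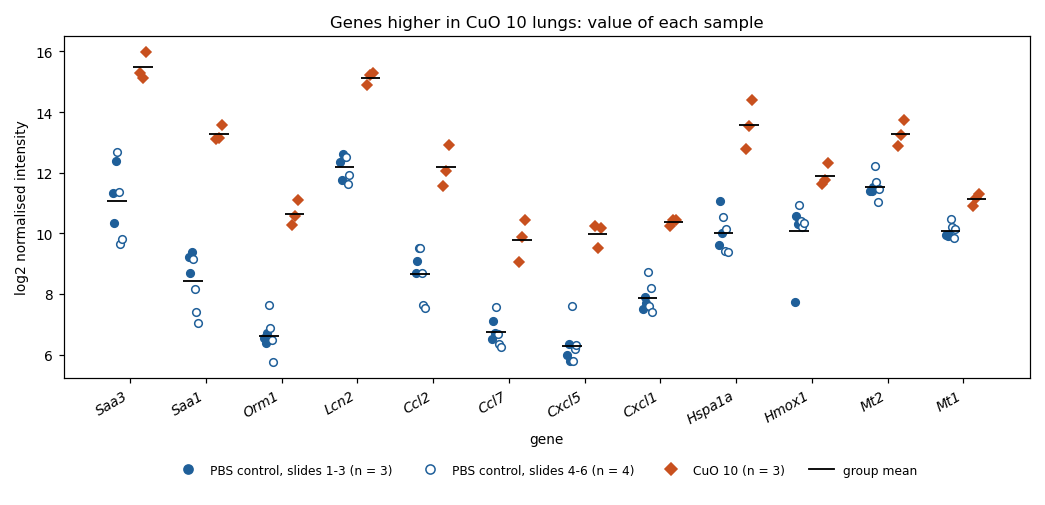
Normalized log2 intensity of 12 genes (horizontal axis) in the 3 CuO 10 samples (orange diamonds) and the 7 PBS controls (blue, filled for controls on slides 1 to 3 and open for those on slides 4 to 6), on 1 vertical scale. Each point is a pool of 2 RNA preparations and the bars mark the group means. The orange points lie above every blue point of the same gene for all 12 genes, by the widest margin for Saa1, where the highest control read 9.38 and the lowest exposed sample 13.12.

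Monocytes leave the blood along ligands of the receptor CCR2. Of the 5 genes of this axis, 3 were up-regulated, with a median of 2.62. Ccl2, the main CCR2 ligand, read 11.54, 12.05 and 12.92 in the exposed lungs against 7.53 to 9.52 (median 8.70) in the controls. For Ccl7, another CCR2 ligand, the exposed values were 9.05, 9.88 and 10.45 and the control range was 6.26 to 7.58 (median 6.67). Both genes were clear of the controls in every exposed sample and highest in replicate 3. The log2 fold changes were 4.32 ± 0.70 (SE, adjusted p = 0.000697) for Ccl2, and 4.55 ± 0.70 (SE, adjusted p = 0.000421) for Ccl7. Ccl12 rose by 2.50 (adjusted p = 0.00646). Ccl8 had a log2 fold change of 2.62 ± 0.83 that missed the threshold (adjusted p = 0.0833), and the receptor gene Ccr2 had the lowest value of the 5, 0.56, also not called.

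Among 11 other CC chemokines and receptors, 6 were up-regulated with a median of 1.52. Ccl3 and Ccl4, the macrophage inflammatory proteins that draw monocytes and T cells, rose by 3.08 and 3.58. Ccl4 read 9.07, 8.82 and 9.55 against 6.84 to 8.18 (median 7.14) in the controls. Ccl20, which draws CCR6-bearing dendritic and T cells to epithelium, rose by 2.50 and Ccl9 by 2.34. Ccl6 rose by 1.56. Ccl5 had the lowest value of this list, -0.81, and was not called.

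Neutrophils follow chemokines that bind CXCR2. Of 12 neutrophil chemoattractants, receptors and growth factors, 5 were up-regulated with a median of 0.97, 3 of them without control replicate 3. Cxcl5, which is made by alveolar epithelium, read 10.23, 9.51 and 10.19 in the exposed lungs against 5.77 to 7.59 (median 6.19) in the controls. Cxcl1 read 10.23, 10.42 and 10.45 against 7.41 to 8.71 (median 7.70). Every exposed sample exceeded every control for both, including control replicate 4, which was the highest control for Cxcl5. The fit gave 5.20 ± 0.72 (SE, adjusted p = 0.000139) for Cxcl5, and 3.97 ± 0.56 (SE, adjusted p = 0.000178) for Cxcl1. Cxcl3 rose by 2.46, Cxcl2 by 1.97 and Csf2, a growth factor of granulocytes and macrophages, by 1.05. The receptor gene Cxcr2 had a log2 fold change of 1.62 ± 0.55 (adjusted p = 0.12).

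The Cxcl1 promoter is printed because Cxcl1 is known as a target of NF-kB, with RefSeq as the source (GRCm38.p6, chr5:90890995-90891294, plus strand, 250 bases before and 50 after the start of the gene). The capitals mark 2 overlapping matches to the NF-kB site, searched on both strands, and 8.46% of 32851 mouse promoters of the same length hold a match. Of the other named genes searched, Steap4 held 2 matches and Hspa1a and Hspa1b 1 each. The rest, among them Saa1, Saa2, Saa3 and Lcn2, held 0.
Cxcl1: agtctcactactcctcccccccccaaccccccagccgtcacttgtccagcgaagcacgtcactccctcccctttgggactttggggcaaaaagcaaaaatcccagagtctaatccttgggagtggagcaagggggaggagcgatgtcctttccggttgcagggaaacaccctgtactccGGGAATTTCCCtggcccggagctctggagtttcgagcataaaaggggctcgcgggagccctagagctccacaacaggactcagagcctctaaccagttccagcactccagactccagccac

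Most neutrophil marker genes were not called. Of 18 markers measured, 3 were up-regulated and none was down-regulated, with a median of 0.95, and the mean level of the list was 9.07 to 9.45 in the exposed lungs and 8.72 to 9.18 in the controls. The 3 were Il1f9 (2.33), which encodes an IL-1 family cytokine also made by epithelium, the collagenase gene Mmp8 (1.79) and the histidine decarboxylase gene Hdc (1.26), of which only 1 was called without exposed replicate 2. The most abundant neutrophil transcripts did not pass the test. S100a9 read 14.24, 14.48 and 14.45 against 14.08 to 14.82 (median 14.36), and S100a8 read 12.39, 12.77 and 12.67 against 11.87 to 13.16 (median 12.17). Their exposed samples lay inside the control range. The fitted values were 1.27 ± 0.72 for S100a9 and 1.19 ± 0.73 for S100a8, and neither was called in any fit. Without control replicate 1 they were 2.10 and 2.07, and in the fit of the 3 same-slide pairs alone, with the replicate number as a block, they were -0.10 and -0.06. Whether the number of neutrophils in the tissue moved with the chemokines was not tested with the array values. In whole tissue fewer cells of a type and less RNA per cell cannot be told apart. The paper counted lavage cells and reported that CuO materials significantly raised airway neutrophils, in PBS-challenged mice too. In lung sections it found inflammation and fragments of cell nuclei after core CuO at the dose compared here. It held these fragments to be likely derived from neutrophils.

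Markers of monocytes and recruited macrophages were in part raised. Of 18 measured, 8 were up-regulated and none was down-regulated, with a median of 1.40, and the mean level of the list was 10.9 to 11.4 in the exposed lungs and 9.86 to 10.3 in the controls. Spp1, the gene of the secreted matrix protein osteopontin, rose by 3.54 ± 0.37 (SE, adjusted p = 1.44e-05), from a control range of 10.14 to 11.15 (median 10.44) to exposed values of 13.10, 13.30 and 14.06. Cd14, a co-receptor for bacterial lipopolysaccharide, rose by 3.04 ± 0.32, and no exposed sample of either gene fell within the control range. Ms4a6d rose by 1.87, the complement genes C1qa and C1qb by 1.48 and 1.47, and the lipid receptor gene Trem2 by 1.33. The arginase gene Arg1 had a log2 fold change of 2.11 ± 0.65 (adjusted p = 0.0758) and its groups overlapped. The count of 8 was 3 without exposed replicate 2, 4 without exposed replicate 3 or control replicate 3, 5 without control replicate 1, and 13 in the fit of the 3 same-slide pairs with the replicate block. The part of incoming cells in the chemokine and cytokine values was not tested.

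Of 20 innate receptors of myeloid cells, 9 were up-regulated, with a median of 1.09. Clec4d, a receptor for fungal and mycobacterial glycolipids, read 10.42, 10.80 and 11.19 against 8.57 to 9.53 (median 8.75), without overlap, and rose by 3.05 ± 0.33 (SE, adjusted p = 1.44e-05). The scavenger receptor gene Msr1, through which macrophages bind particles and modified lipoproteins, rose by 2.13 from a control range of 6.10 to 6.67 (median 6.37) to exposed values of 7.35, 7.72 and 8.16. Clec4e, a sensor of dead cells, rose by 2.07 with overlapping groups, and the inhibitory receptor gene Lilrb4a by 1.88.

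Of 24 pro-inflammatory cytokines and feedback regulators, 6 were up-regulated, with a median of 0.66. The decoy receptor gene Il1r2 rose by 2.49 and the receptor antagonist gene Il1rn by 1.55. Il6 read 6.79, 6.64 and 6.98 against 5.64 to 6.27 (median 5.73), and rose by 1.83. Tnf, which encodes a master cytokine of macrophages, read 6.91, 7.07 and 7.39 against 6.45 to 6.74 (median 6.48), with every exposed sample above every control. Its log2 fold change of 1.32 ± 0.38 lay at the edge of the threshold (adjusted p = 0.04996) and passed it under 14 of 22 alternatives. Il1b had a log2 fold change of 1.78 ± 0.52 and was not called (adjusted p = 0.0563). The remaining 2 DEGs were Tnfaip6, a hyaluronan-binding protein (0.84), and Il11 (0.94). The list had 3 DEGs without exposed replicate 2 and 1 without control replicate 3.

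None of 17 CXCR3 ligands and interferon response genes was called by limma, with 2 higher at an unadjusted p under 0.05, although their median was 0.80. Cxcl10, a chemokine for activated T cells, read 8.86, 8.88 and 11.63 against 6.82 to 7.82 (median 7.07), so that replicate 3 stood far above replicates 1 and 2. Its log2 fold change was 3.23 ± 0.99 (adjusted p = 0.0742), and that of Ifit1, an interferon-induced antiviral gene, was 1.51 ± 0.73. With the replicate number as a block 8 of the 17 were up-regulated, and 2 in the fit of the same-slide pairs alone.

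Most genes of the 2 cell cycle lists were up-regulated, and none was down-regulated. Of 33 mitosis genes, 31 were up-regulated and none was down-regulated, with a median log2 fold change of 1.71, and all 33 had all 3 exposed samples above all 7 controls (6.23% of all genes). Mki67, the gene of the proliferation marker Ki-67, read 11.02, 11.15 and 11.08 in the exposed lungs and 8.67 to 9.82 (median 8.89) in the controls. Top2a, which untangles replicated DNA, read 9.12, 9.33 and 9.30 against 7.23 to 7.86 (median 7.33). The exposed samples were close together for both genes, and the controls spread more widely. The log2 fold changes were 2.14 ± 0.24 (SE, adjusted p = 1.44e-05) for Mki67, and 2.15 ± 0.24 (SE, adjusted p = 1.44e-05) for Top2a. Birc5, the spindle passenger protein survivin, rose by 2.25, the kinetochore motor gene Cenpe by 2.22 and Ube2c, the ubiquitin-conjugating enzyme of the anaphase-promoting complex, by 2.18. The 2 genes not called were Kif2c, with a log2 fold change of 0.38, and Pttg1 (securin), with 0.70.

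Of 30 DNA replication genes, 24 were up-regulated (2.46% of all genes) with a median of 1.09, and 25 had all 3 exposed samples above all 7 controls (6.23% of all genes). The ribonucleotide reductase subunit gene Rrm2, which supplies deoxynucleotides, rose by 2.08 ± 0.27 (SE, adjusted p = 0.000101), from a control range of 8.14 to 9.16 (median 8.37) to exposed values of 10.45, 10.10 and 10.28. The origin-firing factor gene Mcm10 rose by 1.88, thymidine kinase (Tk1) by 1.65 and the helicase subunit gene Gins2 by 1.5. Each of these 4 genes was above the controls in every exposed sample. The count for replication was 12 without control replicate 3, and that for mitosis stayed between 25 and 32 under every alternative tried. Of 16 p53 targets, 2 were up-regulated, Cdkn1a, the cell cycle inhibitor p21, by 0.96 and the stress cytokine gene Gdf15 by 1.19. Of these, 1 was called without exposed replicate 2 or control replicate 1 or with the replicate number as a block, and 0 without control replicate 3.

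**Figure D2:**
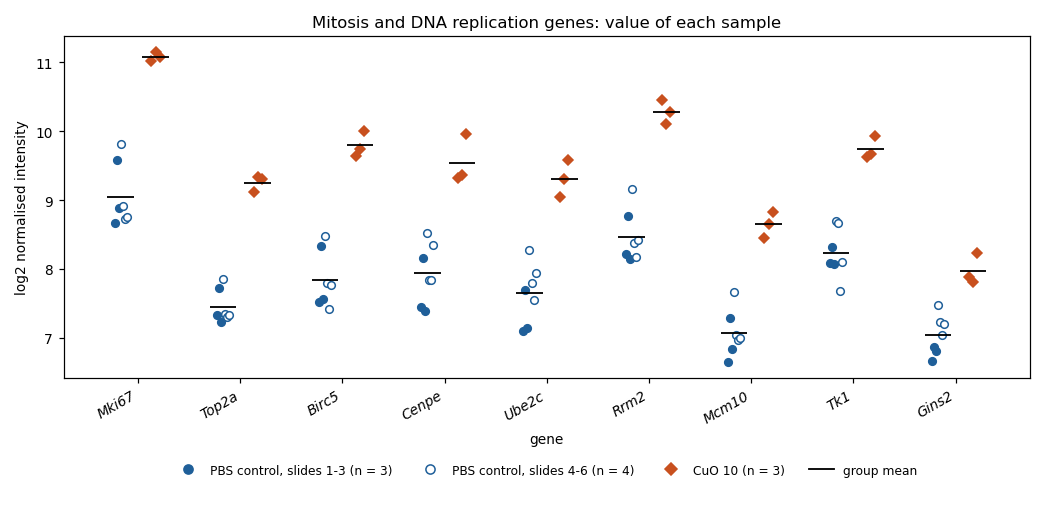
Normalized log2 intensity of 9 cell cycle genes (horizontal axis), 5 of mitosis and 4 of DNA replication, in the 3 CuO 10 samples (orange diamonds) and 7 PBS controls (blue, filled for slides 1 to 3 and open for slides 4 to 6), with bars at the group means. The exposed samples lie above every control for all 9 genes, as for Mki67 with 11.02 to 11.15 against a highest control of 9.82.

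Copper handling was marked by few genes with firm changes. Of 21 genes for copper transport and metal binding, 3 were up-regulated and none was down-regulated, and the median was -0.01. Mt1 read 10.90, 11.17 and 11.30 in the exposed lungs and 9.83 to 10.48 (median 9.94) in the controls. Mt2 read 12.86, 13.24 and 13.73 against 11.05 to 12.21 (median 11.47). Both metallothioneins, small cysteine-rich proteins that bind copper and zinc, were above every control and lowest in exposed replicate 1. The log2 fold changes were 1.72 ± 0.21 (SE, adjusted p = 4.38e-05) for Mt1, and 2.69 ± 0.34 (SE, adjusted p = 7.38e-05) for Mt2. The third gene was Steap4, a metalloreductase of iron and copper, which read 8.53, 8.73 and 8.55 against 6.62 to 7.20 (median 6.90) and rose by 2.22 ± 0.35. The count of 3 was the same under every alternative tried.

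The promoters of Mt1 and Mt2 are printed because metallothionein genes are known to answer metals through metal response elements, as RefSeq gives them for GRCm38.p6 at chr8:94178839-94179138 and chr8:94172368-94172667, both on the plus strand, with 250 bases before and 50 after the start. The capitals mark matches to the core TGCACNC or TGCGCNC on either strand, 3 in Mt1 and 4 in Mt2, where 25.7% of 32851 promoters of this length hold at least 1 match and 1.97% hold 3 or more.
Mt1: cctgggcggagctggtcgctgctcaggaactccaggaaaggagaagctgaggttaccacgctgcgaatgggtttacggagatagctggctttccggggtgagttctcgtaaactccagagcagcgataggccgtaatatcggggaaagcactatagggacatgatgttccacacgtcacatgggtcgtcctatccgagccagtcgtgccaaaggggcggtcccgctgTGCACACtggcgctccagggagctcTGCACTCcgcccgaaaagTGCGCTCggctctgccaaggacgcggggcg
Mt2: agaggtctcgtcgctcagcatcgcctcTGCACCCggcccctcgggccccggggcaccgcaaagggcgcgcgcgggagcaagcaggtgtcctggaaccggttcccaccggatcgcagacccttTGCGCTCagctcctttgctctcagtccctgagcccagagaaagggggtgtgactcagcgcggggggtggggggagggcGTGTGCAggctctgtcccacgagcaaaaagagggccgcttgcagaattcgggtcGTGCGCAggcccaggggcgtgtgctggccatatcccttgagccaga

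Of 25 Nrf2 antioxidant targets, 6 were up-regulated and 2 were down-regulated, with a median of 0.43. Haem oxygenase 1 (Hmox1), which degrades haem, read 11.61, 11.75 and 12.32 against 7.74 to 10.93 (median 10.33), with control replicate 1 far below the other controls and no overlap between the groups. Its log2 fold change was 3.31 ± 0.35 (SE, adjusted p = 1.44e-05). Slc7a11, the cystine importer, rose by 1.45, and Gclc and Gclm, the subunits of the enzyme that starts glutathione synthesis, by 1.25 and 0.68. The iron store gene Fth1 rose by 1.32 and thioredoxin reductase (Txnrd1) by 0.68, and these as well as Gclm overlapped the controls. The members that fell conjugate or hydrolyse reactive compounds. Gstm1, a glutathione transferase, read 12.65, 12.64 and 12.48 against 13.47 to 13.74 (median 13.65) and fell by 1.26, and the epoxide hydrolase gene Ephx1 fell by 1.02. Nqo1, a quinone reductase used as an Nrf2 marker, had a log2 fold change of -0.13 ± 0.25. With the replicate block 3 of the 25 were up-regulated and 4 down-regulated, and the 2 falls were 1 or none without exposed replicate 2 or 3 or control replicate 2 or 3.

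Of 23 heat shock and unfolded protein response genes, 8 were up-regulated and none was down-regulated, with a median of 0.90, and all 23 fitted values were positive. Hspa1a, the inducible HSP70, read 12.78, 13.53 and 14.41 against 9.37 to 11.06 (median 9.99). Every exposed sample exceeded every control, and the exposed samples spread over more than 1 log2 unit with replicate 1 lowest. The log2 fold change was 4.23 ± 0.91 (SE, adjusted p = 0.00807). Hspa1b, its near-identical copy, from which its probe may not be separable, had 3.57 ± 1.08 and was not called (adjusted p = 0.0676). The HSP110 gene Hsph1 rose by 1.68, Hsp90aa1 by 1.58 and the constitutive HSP70 gene Hspa8 by 1.5 with overlap. In the endoplasmic reticulum, the chaperone genes Hspa5 and Sdf2l1 rose by 1.05 and 1.53. The count was 3 without exposed replicate 2, exposed replicate 3 or control replicate 1, and 5 without control replicate 3.

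The Hspa1a promoter is printed because HSP70 genes are known to answer stress through heat shock elements (RefSeq, GRCm38.p6, chr17:34972107-34972406, minus strand, 250 bases before and 50 after the start). The capitals mark the single match to GAANNTTC, read on both strands, a core that 7.86% of 32851 promoters hold. Of the other named genes searched, Hspa1b, Hsph1 and Saa3 held 1 match each. The rest, among them Hspa5 and Sdf2l1, held 0.
Hspa1a: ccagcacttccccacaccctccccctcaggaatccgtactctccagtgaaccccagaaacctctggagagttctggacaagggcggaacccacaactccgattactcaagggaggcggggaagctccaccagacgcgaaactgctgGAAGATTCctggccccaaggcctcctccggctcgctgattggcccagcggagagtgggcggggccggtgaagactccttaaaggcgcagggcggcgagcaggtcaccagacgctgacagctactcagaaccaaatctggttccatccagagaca

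Of 31 tissue remodelling and matrix genes, 9 were up-regulated and none was down-regulated, with a median of 0.56. Timp1, an inhibitor of matrix metalloproteinases, read 11.99, 11.92 and 12.29 against 9.02 to 11.18 (median 9.72). The groups did not overlap, though the highest control came within 1 log2 unit of the lowest exposed sample. Its log2 fold change was 3.42 ± 0.64 (SE, adjusted p = 0.0028). Stromelysin (Mmp3) rose by 2.02, the activin subunit gene Inhba by 1.51, fibronectin (Fn1) by 1.17 and the fibrillar collagen gene Col3a1 by 1.28, with overlap only for Inhba among these.

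**Figure D3:**
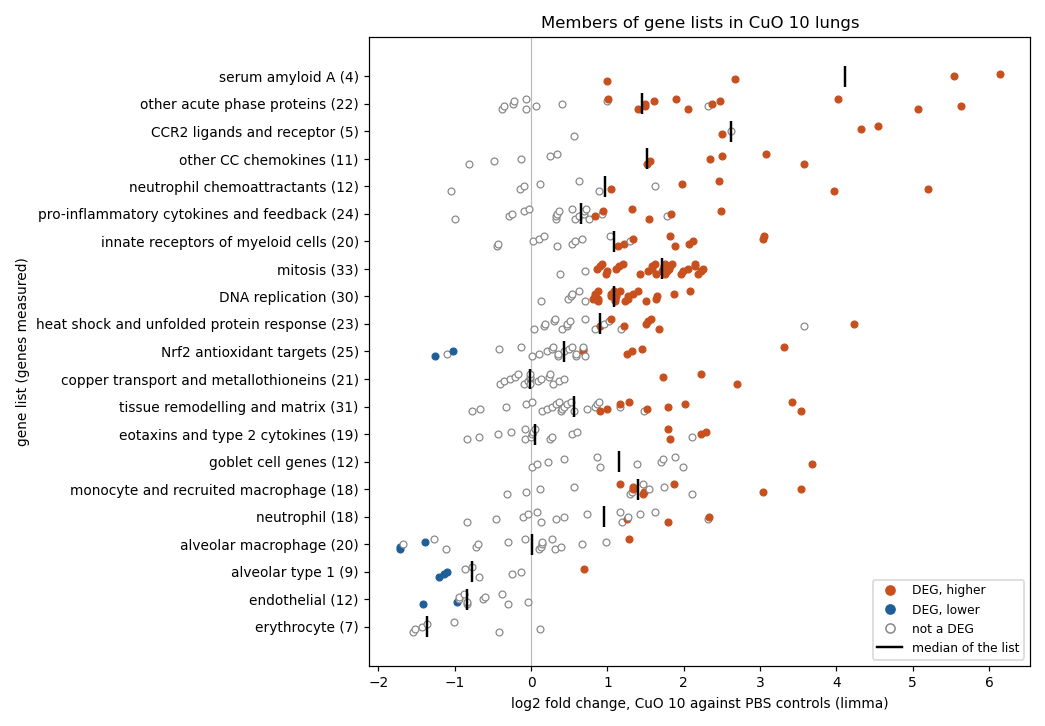
Log2 fold change of CuO 10 against PBS controls, from the fit, for each measured member of 21 gene lists (horizontal axis) with a line of points for each list. Filled points are DEGs, open points are not, and the short bars are list medians. Mitosis stands to the right of 0 with 31 of 33 filled, the widest values are those of serum amyloid A and the other acute phase genes, and the endothelial and alveolar type 1 markers lie mostly to the left.

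Type 2 genes, which drive allergic inflammation, divided within the list. Of 19 eotaxin, alarmin and type 2 genes, 4 were up-regulated, with a median of 0.05. Il33, the epithelial alarmin, read 10.00, 10.46 and 10.56 against 8.89 to 9.33 (median 9.07) without overlap and rose by 1.82 ± 0.30 (SE, adjusted p = 0.000823). Ccl17, a ligand of CCR4 on Th2 cells, rose by 1.79, and the resistin-like genes Retnla and Retnlb by 2.29 and 2.23. For Retnlb, exposed replicate 1 read 6.49 and the highest control 6.39. The eosinophil chemokines and classical Th2 cytokines were not called, and their exposed samples lay within the control range, except those of Il4, which lay below it. The log2 fold changes were -0.08 ± 0.37 for Ccl11, 0.53 ± 0.61 for Ccl24, 0.03 ± 0.19 for Il13 and -0.43 ± 0.45 for Il4. The count of 4 was 2 without exposed replicate 2 or 3 and 1 without control replicate 3. None of 8 eosinophil markers was called by limma (median -0.40, 1 lower at an unadjusted p under 0.05), and 2 were lower with the replicate block.

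Of 12 goblet cell genes, 1 was up-regulated, and the median was 1.15. It was Slc26a4 (pendrin), an anion exchanger of airway epithelium, which read 11.35, 11.23 and 11.76 against 7.86 to 9.27 (median 8.53) and rose by 3.68 ± 0.58 (SE, adjusted p = 0.000529). The mucin genes missed the threshold, with 1.99 ± 0.73 for Muc5b and 0.86 ± 0.84 for Muc5ac, and their groups overlapped. Without exposed replicate 2 these values were 0.68 and -1.18, and without exposed replicate 1 they were 2.48 and 1.56. With the replicate block 2 of the 12 were up-regulated, and 5 in the fit of the same-slide pairs alone. Among 10 ciliated cell markers, Foxj1, the regulator of motile cilia, rose by 1.71 and Rsph1, of the ciliary radial spoke, by 1.24. Neither was called without exposed replicate 2, and 1 of them was without exposed replicate 3, control replicate 1 or control replicate 3.

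The falls were smaller than the rises. Igfbp3, which binds insulin-like growth factors, read 11.16, 10.97 and 10.75 in the exposed lungs against 12.73 to 13.77 (median 12.98) in the controls, and fell by 2.16 ± 0.31 (adjusted p = 0.000202). The exposed samples of Igfbp3 lay more than 1 log2 unit below the lowest control. Colq, a collagen-tailed anchor of acetylcholinesterase, read 10.01, 9.79 and 9.80 against 11.20 to 11.74 (median 11.61) and fell by 2.04. Cyp2a4, a steroid hydroxylase of the cytochrome P450 family whose near copies may share its probe signal, read 9.64, 9.08 and 9.26 against 11.24 to 12.46 (median 11.93). Its fitted fall of 2.09 ± 0.57 was smaller than the difference of -2.59 between the group means. Others of the 10 largest falls without overlap were Krtap17-1, AW549542, Cst8 and Bex2, with log2 fold changes of -2.20, -2.0, -1.72 and -1.70. The plain differences of their group means were -1.03, -1.17, -1.14 and -0.81.

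Endothelial genes were lower as a list but few passed the test. Of 12 endothelial markers, 2 were down-regulated, none was up-regulated and all 12 fitted values were negative, with a median of -0.84 and a mean level of 11.4 to 11.7 in the exposed lungs against 11.9 to 12.4 in the controls. Kdr, the VEGF receptor 2, read 12.65, 12.15 and 12.30 against 12.37 to 13.48 (median 12.82) and fell by 0.97. Aplnr, the apelin receptor, fell by 1.41, and both overlapped the controls through exposed replicate 1. Esm1, which encodes an endothelial proteoglycan and was among the largest falls, read 11.21, 10.67 and 10.36 against 11.59 to 12.21 (median 11.95) without overlap and fell by 1.81 ± 0.42. The count of 2 was 0 without control replicate 3, 1 without exposed replicate 3, 6 without control replicate 1, and 4 with the replicate block.

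Alveolar epithelium showed changes in both directions. Of 9 alveolar type 1 markers, 3 were down-regulated and 1 was up-regulated, with a median of -0.77 and a list mean of 12.6 to 12.9 against 13.1 to 13.4. Clic5, a chloride channel protein, read 13.49, 13.38 and 13.05 against 13.84 to 14.31 (median 14.01) and fell by 1.14, while the anchoring protein gene Akap5 fell by 1.1 and Igfbp2 by 1.21, the last with overlap. Podoplanin (Pdpn) rose by 0.69. Of 10 alveolar type 2 markers, Sftpd, an antimicrobial collectin, read 16.64, 16.87 and 16.72 against 15.82 to 16.06 (median 15.99) and rose by 1.64 ± 0.22 (SE, adjusted p = 0.000105), and the transcription factor gene Etv5 fell by 0.86. The 3 type 1 falls were 0 without exposed replicate 2, exposed replicate 3 or control replicate 3, 1 without control replicate 1, 5 without exposed replicate 1 and 1 with the replicate block, and Pdpn and Etv5 lost their call with that block. Pdpn was also not called without exposed replicate 1 or 3 or control replicate 2, 3, 5, 6 or 7, nor Etv5 without exposed replicate 2 or 3 or control replicate 1, 2, 3, 5 or 6.

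Alveolar macrophage markers also divided, with 3 of 20 down-regulated, 1 up-regulated and a median of 0.01. Ear1, Ear2 and Ear10, ribonuclease genes whose sequences are so alike that their probes may share signal, were the 3 that fell. Ear2 read 12.82, 12.65 and 12.04 against 13.59 to 14.09 (median 13.99), and Ear1 read 11.28, 10.90 and 10.35 against 11.82 to 12.20 (median 12.05). For both genes exposed replicate 3 was lowest and all exposed samples lay below all controls. The fitted log2 fold changes were -1.71 ± 0.43 for Ear1, -1.72 ± 0.46 for Ear2 and -1.39 ± 0.37 for Ear10. Fabp5, a lipid carrier, rose by 1.29, a call lost without exposed replicate 2 or 3 or control replicate 3. The list mean was 9.63 to 9.92 in the exposed lungs and 9.88 to 10.3 in the controls. The 3 falls were 0 without exposed replicate 3 or control replicate 3 or with the controls of slides 1 to 3 alone, 5 without exposed replicate 1, and 6 with the replicate block.

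Blood and lymphoid lists had few calls. In 17 T cell markers the transcription factor gene Lef1 fell by 0.94, and in 9 natural killer cell markers the granzyme gene Gzma read 11.31, 10.84 and 11.40 against 11.55 to 12.80 (median 12.37) and fell by 1.47. Neither call held without exposed replicate 3, control replicate 1 or control replicate 3, and that of Gzma was also lost without exposed replicate 2 or control replicate 4, 6 or 7. By limma none of 9 B and plasma cell markers was called (0 at an unadjusted p under 0.05), with a median of -0.45, and none of 7 erythrocyte transcripts (5 lower at an unadjusted p under 0.05), with a median of -1.37. The erythrocyte list had a mean level of 10.99 to 11.6 in the exposed lungs and 11.9 to 12.4 in the controls, and the haem synthesis gene Alas2 read 10.56, 10.04 and 9.69 against 11.30 to 12.38 (median 11.69). With the replicate block 2 T cell, 3 natural killer cell, 4 B cell and 3 erythrocyte genes were down-regulated. The part of blood left in the tissue in the endothelial and lymphoid values was not tested. Heart muscle markers, 8 in all, ranged in their mean from 9.19 to 10.5 in the exposed lungs and 9.53 to 11.8 in the controls, with none called by limma (0 at an unadjusted p under 0.05) and 2 lower with the replicate block.

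**Figure D4:**
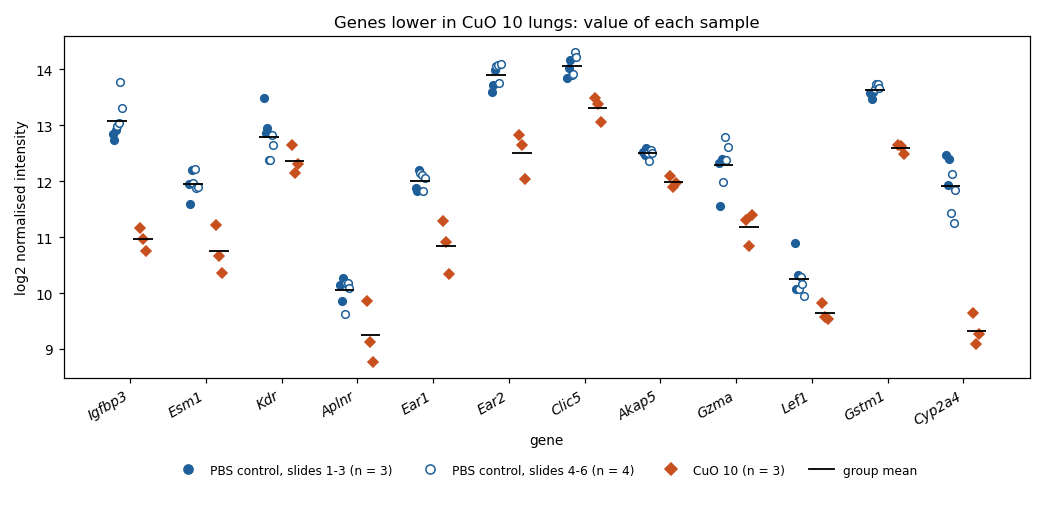
Normalized log2 intensity of 12 genes called lower in the exposed lungs (horizontal axis), in the 3 CuO 10 samples (orange diamonds) and the 7 PBS controls (blue, filled for slides 1 to 3 and open for slides 4 to 6), on 1 vertical scale with bars at the group means. Orange lies below every blue point of the same gene except for Kdr and Aplnr, where exposed replicate 1 at 12.65 and 9.87 falls inside the control range.

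The aryl hydrocarbon receptor list, 8 genes, divided, with 2 down-regulated and none up-regulated. By limma 1 member was higher and 2 were lower at an unadjusted p under 0.05. The highest value was that of Cyp1b1, 1.23, which was not called. In each of 3 alternatives 1 member was up-regulated: array as a random block, loess and Aquantile, and the 10 samples alone. The receptor gene Ahr read 11.37, 11.13 and 11.06 against 11.72 to 12.36 (median 12.03) and fell by 1.00 (adjusted p = 0.04996). The fit also called Cyp1a1 lower, by 1.34, but its exposed samples read 7.09, 7.26 and 7.46 within a control range of 5.56 to 7.95 (median 6.76) and its group means differed by 0.31 the other way. It was 1 of 4 DEGs with group means opposite to the fit, and its value turned to 0.32 when the 10 samples were fitted alone. Of the 2 calls, 0 held without exposed replicate 2 or control replicate 3, and 1 without exposed replicate 3 or control replicate 1, 5 or 7. Of 16 circadian clock genes, 1 was up-regulated, the repressor gene Nfil3 (1.46), and the output gene Dbp read 13.34, 13.39 and 13.17 against 14.002 to 14.63 (median 14.48) with a log2 fold change of -1.49 ± 0.46 (adjusted p = 0.0749). With the replicate block 2 clock genes were down-regulated, and 1 was without control replicate 1. None of 20 cholesterol synthesis and uptake genes was called by limma (4 higher at an unadjusted p under 0.05), with a median of 0.25.

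Against the lower dose of core CuO, 2.5 μg/mouse (3 samples), limma called no gene for CuO 10 (0.00% of 22911 genes), with 1070 genes (4.67%) at an unadjusted p under 0.05. With the replicate number as a block 4 genes were called (3 up, 1 down), and 6 with slide and array position as batch terms. Against the same controls, which the comparisons share, CuO 2.5 changed 208 genes (0.908%). The log2 fold changes at 2.5 and 10 μg, side by side, were 5.51 and 6.15 for Saa3, 3.47 and 4.32 for Ccl2, and 1.54 and 2.14 for Mki67. For Mt2 they were 2.27 and 2.69, and for Spp1 1.85 and 3.54. The difference between the doses had a 95% interval of 0.07 to 1.15 for Mki67, -0.36 to 1.21 for Mt2 and 0.85 to 2.54 for Spp1, so that a missing call does not show equal levels.

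Between CuO 10 and the higher dose of 40 μg/mouse (3 samples), 772 genes differed (3.37%), 445 higher (1.94% of all genes) and 327 lower (1.43%) at the higher dose. CuO 10 and CuO 40 samples shared 2 arrays, while no array held both CuO 10 and CuO 2.5. The SE was 0.53 here and 0.98 against CuO 2.5 for Saa3, and 0.19 and 0.35 for Igfbp3. The counts of called genes therefore do not compare the sizes of the dose steps. The mitosis genes were further raised, with 27 of 33 higher, and Mki67 rose by another 0.78. Mt1 and Mt2 were higher by 0.88 and 1.45. Spp1 and Timp1 were higher by 1.30 and 1.85, and Retnlb, the largest rise, by 3.26. For other genes the fitted difference between the doses was not called and its interval held 0. Saa3 differed by 0.01 with an interval of -1.08 to 1.11, Cxcl1 by -0.14 with -0.83 to 0.56, and Hspa1a by 0.50 with -0.62 to 1.63. C3, Ccl6 and Csf2, raised at 10 μg, differed by -0.95, -0.82 and -0.86 between 40 and 10 μg, all called lower. Among the falls, Ear1 and Ear2 differed by a further -2.40 and -2.49, Igfbp3 by -1.5 and the fatty acid carrier gene Fabp1, not called at 10 μg, by -3.20. The count was 403 without replicate 3 of either group, which share an array.

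**Figure D5:**
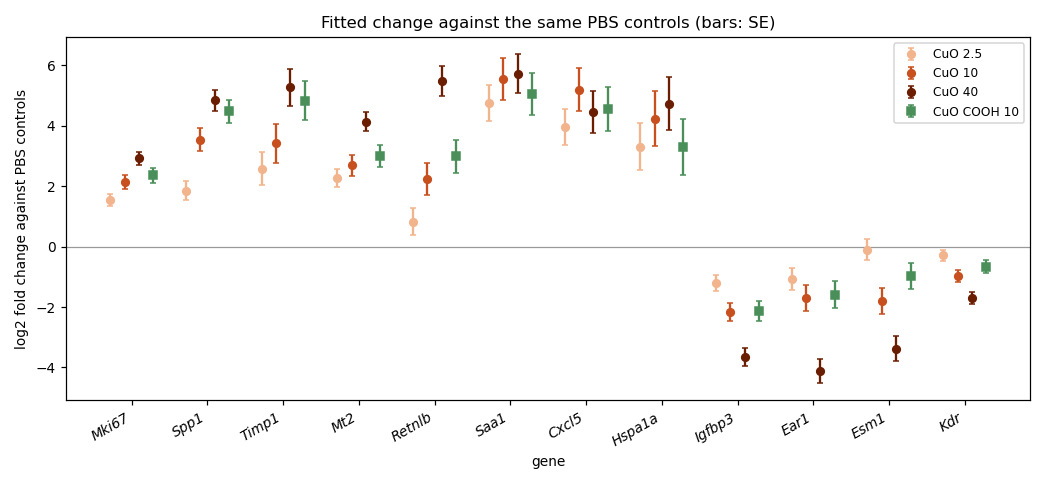
Fitted log2 fold change against the shared PBS controls (vertical axis, with bars for the standard error) of core CuO at 2.5, 10 and 40 μg/mouse and of CuO COOH at 10 μg/mouse for 12 genes (horizontal axis). Mki67 went from 1.54 through 2.14 to 2.92, Saa1 from 4.76 through 5.55 to 5.73, and Ear1 from -1.09 through -1.71 to -4.12.

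CuO COOH is the carboxylated form of the material, and at the same mass of 10 μg/mouse (3 samples) limma called no gene between it and CuO 10 (0.00%), with 654 genes (2.85%) at an unadjusted p under 0.05. This was the only pair of materials compared. The study dosed by mass of the whole material, and it measured less copper in CuO COOH than in core CuO. Primary particle size and dissolution rate also differed, so the surface was not the only difference. The 95% interval of CuO COOH 10 minus CuO 10 was -0.29 to 0.73 for Mki67, -0.69 to 0.81 for Hmox1 and -0.44 to 1.05 for Mt2. It was wider for Ccl2, -1.31 to 1.71, and for Saa1, -1.98 to 0.99. Intervals on 1 side of 0 included those of Spp1 and Timp1 at 0.14 to 1.74 and 0.02 to 2.81, and of Ccl20 and Clec4d at -2.09 to -0.31 and -1.70 to -0.27, none of which passed the adjustment. Without CuO COOH replicate 3 the count was 1, and with slide and array position as batch terms it was 4.

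In mice challenged with OVA, CuO 10 changed 61 genes against OVA-challenged controls (0.266%), compared with 816 in the PBS-challenged mice. The OVA-challenged controls already stood above the PBS-challenged controls by a fitted 3.38 for Saa3 and 3.54 for Cxcl5. For Hspa1a this difference was 0.89 and not called. With CuO 10, Saa3 averaged 15.27 under OVA and 15.47 under PBS, and Cxcl5 10.75 and 9.98. The test of the difference between the CuO 10 effects in OVA- and PBS-challenged mice called no gene (0.00%), with 1156 genes (5.05%) at an unadjusted p under 0.05. The effect in the OVA-challenged minus that in the PBS-challenged mice was -4.19 (95% interval -6.31 to -2.07) for Saa3, -1.65 (95% interval -2.21 to -1.08) for Mki67, -3.71 (95% interval -5.42 to -2.0) for Cxcl5 and -3.26 (95% interval -4.80 to -1.72) for Timp1. It was -0.38 (95% interval -0.87 to 0.12) for Mt1 and -1.39 (95% interval -3.57 to 0.78) for Hspa1a. All of these genes were DEGs in the PBS-challenged mice, whose effect is subtracted in this difference. With the replicate number as a block the test of the difference called 195 genes, 23 of them with the higher and 172 with the lower effect under OVA. The count was between 0 and 19 with each sample left out, and above 0 without CuO 10 + OVA replicate 1, OVA control replicate 1, 3, 4 or 6, or PBS control replicate 2 or 7.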

How the data were processed

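Lung RNA of 89 mouse samples was measured on 46 2-colour Agilent SurePrint G3 arrays (46 arrays on 6 slides, 43 with 2 samples and 3 with 1 sample used here). The authors deposited the Feature Extraction output of each channel (version 12.0.2.2 per the file headers), from which the median foreground intensity per spot was used, and a table of processed log2 values, which the authors deposited as the normalized matrix and which served as an alternative. Following the study's methods, foreground intensity was not background-corrected, since subtraction leaves dim spots without a log, was log2-transformed and quantile-normalized over all samples, and probes were averaged to genes. Of 62976 spots 3671 controls were left out, and 56605 probes remained, of which 32994 named 22911 genes. The ComBat step of the methods was not repeated, and the batches entered the model instead.

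limma 3.58.1 in R 4.3.3 fitted all 26 groups with dye and array as fixed terms (lmFit, eBayes, 17 residual degrees of freedom), with Benjamini-Hochberg adjustment over all genes. Since no array held both groups, each contrast passes through samples that share arrays, and a sample left out takes its array partner's information with it. A probe below background on all arrays of a group gives only a bound, set as the bright group's mean after loess over the higher of the dim signal and the lowest signal well above background. Signals of dim probes carry background, which lowers their fold changes, and the number of arrays limits the precision. On simulated data with 22851 genes, the fit called 74 of 100 genes changed by 1 log2 unit, 99 of 100 changed by 2, and 15 unchanged genes. The simulated noise was independent and normal, without array, dye or slide effects. These rates therefore do not measure how the fit performs on the real arrays. Figures were drawn with matplotlib 3.10.9 in Python 3.11.15.

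Same-numbered samples of both groups shared slide and dye, and their deviations from the group means correlated (0.183, 0.214 and 0.158), so the replicate number was fitted as a block in an alternative. Other alternatives changed the batch terms (slide and array position, array as a random block, array only), the background correction (normexp, offset 50), the normalization (loess and Aquantile, the deposited table), the filter on dim probes, the choice of probe, the controls used (slides 1 to 3, the same-slide pairs, the 10 samples alone) and left out each sample. The genes named were the 10 largest rises and falls without overlap between groups, up to 5 called members of each list, members whose role is explained, and genes the study names, of which 2 are not reported here. The members and lists were chosen with earlier results of these data known. A list's count and median are descriptions and were not tested against other genes. Promoters came from RefSeq (GRCm38.p6).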

Additional observations from a re-analysis of the deposited data

Results flagged for a closer look

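Of the 131 genes named, 11 had a PBS control that stood far from the other 6 by Dixon's criterion, which flags about 1 in 20 groups by chance. Control replicate 4 was the highest for Orm2 at 7.46 (next 6.38), Ccl4 at 8.18 (next 7.33), Cxcl5 at 7.59 (next 6.33), Cxcl3 at 6.47 (next 5.88) and the haemoglobin gene Hba-a1 at 17.23 (next 17.07). The first 4 of these encode acute phase proteins or chemokines, all of which were also raised in the exposed lungs, and every exposed sample remained above this control. Control replicate 1 was the lowest for Hmox1 at 7.74 (next 10.20) and the highest for Nqo1 at 7.12 (next 6.89) and Lef1 at 10.89 (next 10.32). Control replicate 2 was the highest for Nfil3 at 8.41 (next 8.14) and Fabp5 at 13.93 (next 13.42), and control replicate 6 the lowest for Dbp at 14.002 (next 14.39). Why these samples stood apart was not tested.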

How the results depend on the processing

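Of the 108 named DEGs, 47 kept their call under all 22 alternatives, and of their 2376 values 2074 stayed on their side of the threshold, 300 no longer passed it and 2 changed sign, both of Cyp1a1 (0.31 with array as a random block and 0.32 with the 10 samples alone). The 47 were Saa3, Saa1, Orm1, Orm2, Lcn2, Cfb, Ccl2, Ccl7, Ccl3, Ccl4, Ccl9, Ccl20, Cxcl5, Cxcl1, Cxcl2, Il1r2, Clec4d, Cd14, Msr1, Lilrb4a, Mt1, Mt2, Steap4, Hmox1, Slc7a11, Gclc, Hspa1a, Birc5, Cenpe, Ube2c, Top2a, Mki67, Rrm2, Mcm10, Tk1, Gins2, Timp1, Spp1, Mmp3, Il33, Slc26a4, Il1f9, Ms4a6d, Sftpd, Igfbp3, Colq and AW549542. Of the named DEGs, 45 lost their call without control replicate 3, 40 without exposed replicate 2, 32 without exposed replicate 3, 18 without control replicate 1, and 2 to 7 without each of the other samples. The number of DEGs of CuO 10 against PBS controls was 483 with array only as a batch term, stayed within 1.5 times of 816 under the other batch terms, normalizations, filters and probe choices, and lay between 276 and 985 when samples were omitted in turn. For CuO 40 against CuO 10 it lay between 403 and 981, for CuO 10 against CuO 2.5 it was 0 throughout, and for CuO COOH 10 against CuO 10 it was 0 or 1. With slide and array position as batch terms, CuO 10 against CuO 2.5 gave 6 DEGs and CuO COOH 10 against CuO 10 gave 4. The difference between the effects in OVA- and PBS-challenged mice gave 193 genes with slide and position, 194 with array as a random block, 18 after loess, 1 from the deposited table, 6 from the brightest probes, 4 with the controls of slides 1 to 3, and 0 to 19 with each sample left out. The causes were not tested.

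With the replicate number as a block, the main comparison gave 795 DEGs, CuO 10 against CuO 2.5 gave 4 and the OVA difference 195, and in the 3 same-slide pairs alone the block gave 921. Beside the lists already named, this block left the counts of mitosis, replication and chemokine genes within 1.5 times.

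Changes of sign also occurred among genes that were not called. With slide and position they were 0.031 for Nqo1, -0.013 for S100a9 and -0.0091 for Il13. With array as a random block they were 0.29 for Ccl11, -0.020 for Ccl24 and -0.0031 for Il13. The replicate block gave -0.14 for Ccl24 and -0.025 for Il13, and in the same-slide pairs -0.063 for S100a8, -0.099 for S100a9, -0.056 for Ccl24 and -0.098 for Il13. The 10 samples alone gave -0.020 for S100a9, 0.23 for Ccl11, -0.023 for Ccl24 and -0.0041 for Il13, and the controls of slides 1 to 3 gave 0.073 for Ccl11. When samples were omitted in turn, Nqo1 ranged from -0.33 to 0.26, Il13 from -0.063 to 0.14 and Muc5ac from -1.18 to 1.56.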
